A study of Mus musculus with 2 samples.

Results

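Nuclear long noncoding RNAs were followed across the cell types of the mature mouse retina, with and without Ptbp1. The set held 8 of the 25778 genes of the count table: Malat1, Neat1, Meg3, Miat, Rmst, Snhg11, Snhg14 and Kcnq1ot1. They were chosen by name from results of these data, on their levels by cell type and library and on their relation to the mitochondrial share of a cell's RNA, so those values are given as a description and without a test. All 8 genes had at least 1 count. Whole retinas of mice aged 30 days were dissociated with papain and captured on the 10x Genomics platform, which counts unique molecular identifiers (UMIs) at the 3′ ends of polyadenylated RNA. The control mouse carried Chx10-Cre and no floxed Ptbp1 (Ptbp1-Ctrl), and the mutant carried Chx10-Cre;Ptbp1lox/lox (Ptbp1-KO), so both animals expressed the Cre recombinase. Chx10-Cre acts in retinal progenitors, the cells from which the neurons and Müller glia of the retina arise. There was 1 library from 1 mouse for each genotype. Animal, dissociation and library therefore cannot be told apart from genotype, and every difference below is a difference between 2 libraries with no replicate check.

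Long noncoding RNAs of this kind are transcribed like messenger RNAs but act largely in the nucleus and without a protein product. Malat1 is a component of nuclear speckles, where splicing factors are stored, and the long isoform of Neat1 is the scaffold of paraspeckles. Miat, also called Gomafu, forms other nuclear bodies in neurons. Meg3, Snhg14 and Kcnq1ot1 are expressed from a single parental allele within imprinted domains: Meg3 is the maternally expressed RNA of the Dlk1-Dio3 domain, Snhg14 runs through the clusters of small nucleolar RNAs (snoRNAs) of the Prader-Willi region and into the gene Ube3a from the opposite strand, and Kcnq1ot1 silences neighbouring genes from within Kcnq1. Rmst binds the transcription factor Sox2 in neural progenitors, and Sox2 is also present in Müller glia. Snhg11 is a snoRNA host gene of neurons. Ptbp1 itself encodes an RNA-binding protein that recognises pyrimidine-rich stretches such as UCUU.

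The sequences of the longest annotated transcripts (GENCODE vM21, build GRCm38, the same sequence as mm10) differ in features that bear on how such RNAs are captured and bound. The 3′ end of Malat1 is shown first because it carries no ordinary poly(A) tail: after cleavage beside a tRNA-like RNA, the transcript ends in a genome-encoded run of A that folds back on 2 U-rich motifs. The stretch below comes from chr19:5795983-5796099, minus strand, with the run of 12 A in capitals. The last 80 bases of the long Neat1 transcript, chr19:5824708-5824787, minus strand, are shown for comparison, with runs of at least 4 A in capitals. The Miat stretch, chr5:112217319-112217468, minus strand, lies in 1 exon and holds 4 copies of ACTAAC in capitals, the repeat that is bound by the branch-point protein Sf1. The Snhg11 stretch, chr2:158383178-158383277, plus strand, is the 100-base window with the most TCTT, the DNA form of the Ptbp1 motif, with its 20 adjoining copies in capitals.
Malat1: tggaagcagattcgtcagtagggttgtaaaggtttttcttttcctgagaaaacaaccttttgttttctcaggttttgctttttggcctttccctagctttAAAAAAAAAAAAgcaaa
Neat1: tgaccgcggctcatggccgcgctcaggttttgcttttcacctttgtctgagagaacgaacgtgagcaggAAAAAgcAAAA
Miat: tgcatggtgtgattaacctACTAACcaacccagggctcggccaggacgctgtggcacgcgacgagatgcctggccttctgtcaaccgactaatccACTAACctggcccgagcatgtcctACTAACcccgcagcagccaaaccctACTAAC
Snhg11: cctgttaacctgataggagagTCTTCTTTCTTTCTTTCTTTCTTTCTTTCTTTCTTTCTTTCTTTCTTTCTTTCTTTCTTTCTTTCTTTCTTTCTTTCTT

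Among 9177 annotated long noncoding transcripts of at least 1000 bases, the median longest run of A was 6 bases, and 16.4% had a run of at least 9. Such runs occurred in 4 members: once in Malat1 (6983 bases, 1 exon), 6 times in Meg3 (14548 bases, longest run 16), once in Snhg14 (6861 bases, longest run 17) and 18 times in Kcnq1ot1 (93092 bases, 1 exon, longest run 41). The longest run was 8 in Rmst (2891 bases) and in Snhg11 (5864 bases), and 7 in Neat1 (20771 bases, 1 exon). Miat (9163 bases) had no run over 4, and in 11.8% of the transcripts the longest run was no longer than that. Miat also held 11 copies of ACTAAC, which 24.0% of the transcripts contain at all. Counted on the transcribed strand with overlaps, TCTT occurred 15.9 times per kb in Snhg11, a density reached by 0.316% of the transcripts, against 4.89 to 7.45 per kb in the other members and a median of 5.80. Of its 93 copies, 20 lay in an 80-base TTTC repeat, and the rest of the transcript still held 12.6 per kb. These counts describe letters, and neither binding nor priming at them was measured.

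The members are spread over the genome. Malat1 (chr19:5795690-5802672) and Neat1 (chr19:5824708-5845478) are neighbours on the minus strand. Meg3 lies at chr12:109541001-109571726 on the plus strand, Miat at chr5:112213228-112229395 on the minus strand and Rmst at chr10:92071037-92165170 on the minus strand. Snhg11 occupies chr2:158375638-158386145 on the plus strand, where the annotation classes it as protein coding. Snhg14 (chr7:59307924-59975759) runs opposite to Ube3a, and Kcnq1ot1 (chr7:143203458-143296549) opposite to Kcnq1. The sources used here do not state whether counting used strand or introns, so reads of Snhg14 and Ube3a, or of Kcnq1ot1 and Kcnq1, could be confused without it. Kcnq1 itself had 27 UMIs or fewer in each of the 5 main cell types in either library.

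The Ptbp1-Ctrl library held 16421 cells and 32758836 UMIs, and the Ptbp1-KO library 14522 cells and 35328593 UMIs. In all, 63 cell barcodes occurred in both libraries. Cell types were those of the deposited cell table. Its photoreceptors are rods and cones, its interneurons are bipolar (BC), amacrine (AC) and horizontal (HC) cells, and it also names ganglion cells (RGC) and Müller glia (MG). Their markers were highest in their own type in both libraries, with the exception of Tfap2b for AC. Ptbp1 lay between 13.8 and 49.8 counts per 1000000 UMIs (CPM) in rods, cones, BC, AC and MG of Ptbp1-Ctrl and between 0.0977 and 1.18 CPM in Ptbp1-KO. Cells of Ptbp1-KO were deeper in these 5 types and had a lower median mitochondrial share, 1.51% against 1.92% in rods and 1.97% against 2.59% in MG. The HC numbered 17 and 7 cells. The 124 and 97 RGC stand apart: their rod markers summed to 17409 and 21600 CPM, against 4548 and 4280 CPM in AC, and their median mitochondrial share was 6.22% and 5.78%. All but 1 of the RGC, and all of the HC, share cluster 6 with AC in the deposited clustering, so counts of pairs below use the other 5 types.

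Malat1 gave more UMIs than other genes in most cell types, on a scale of 3′ counts that is not per length. It had the highest count of all genes in 13 of the 14 combinations of cell type and library, the exception being RGC of Ptbp1-Ctrl, where it ranked 4 behind Cartpt, the highest gene. It made up 5.11% of all UMIs in MG of Ptbp1-Ctrl and 6.18% in MG of Ptbp1-KO. Levels are in CPM of the UMIs summed over the cells of a type, with exact Poisson intervals at 95% that cover counting error only. The order of the types was the same in both libraries, with no overlap between neighbouring intervals: HC, MG, AC, cones, rods, BC and RGC. Among the 5 main types, MG exceeded BC, the lowest, by 2.15 times in Ptbp1-Ctrl and by 2.27 times in Ptbp1-KO.

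**Figure D1:**
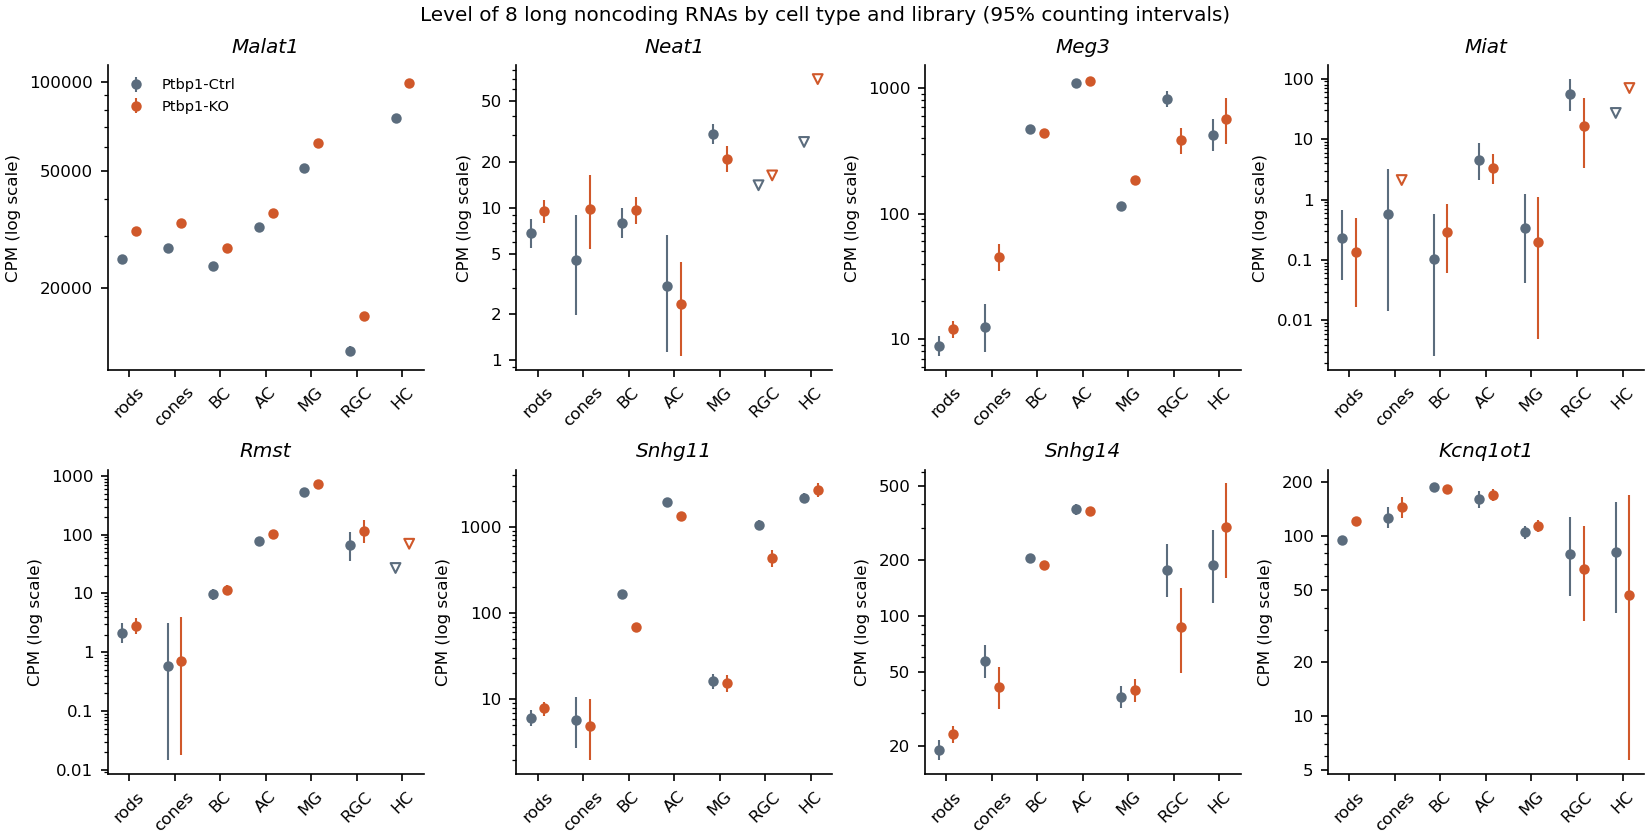
Level of each of the 8 long noncoding RNAs in CPM (vertical axis, log scale) in 7 cell types (horizontal axis) of the Ptbp1-Ctrl and Ptbp1-KO libraries. Points are summed UMIs of 1 library, bars are 95% Poisson intervals for counting error, and open triangles mark the level of 3 counts where no UMI was seen; Malat1 peaks in HC and MG, Rmst in MG, and Meg3 and Snhg14 in AC.

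Every cell type had more Malat1 in Ptbp1-KO. Rods went from 25056 CPM in Ptbp1-Ctrl to 31268 CPM in Ptbp1-KO, cones from 27362 to 33261, BC from 23804 to 27231, AC from 32250 to 35826 and MG from 51060 to 61803. None of these steps reached 1.5-fold. The log2 ratios of Ptbp1-KO over Ptbp1-Ctrl lay between 0.15 in AC and 0.32 in rods, and with at least 47415 UMIs behind every sum the counting intervals were narrow (0.31 to 0.33 in rods). RGC went from 12237 to 16045 CPM and HC from 75025 to 98971 CPM, the latter on 17 and 7 cells.

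Malat1 was higher in Ptbp1-KO in 20 of the 21 deposited clusters, with a median log2 ratio of 0.18. The exception was rod cluster 3, at 7300 CPM in Ptbp1-Ctrl against 6883 CPM in Ptbp1-KO (log2 ratio −0.08, −0.11 to −0.06), where mitochondrial genes took 5.39% and 4.50% of UMIs. This cluster held 1835 of the 10058 rods of Ptbp1-Ctrl and 972 of the 9301 rods of Ptbp1-KO, and the rod log2 ratio without it was 0.23. Within bins of mitochondrial percent, from under 1% to 20%, Malat1 was higher in Ptbp1-KO in 20 of 20 bins over the 5 types (log2 0.11 to 0.65). Within bins of depth it was higher in 18 of 20, and the lowest value, −0.18, came from MG of 700 to 1500 UMIs (52792 and 46746 CPM in 181 and 56 cells). Rods with little Malat1 were a smaller share in Ptbp1-KO: cells in which it made up under 1% of UMIs were 14.2% of rods in Ptbp1-Ctrl (13.5 to 14.9, exact Clopper-Pearson interval) and 8.70% in Ptbp1-KO (8.13 to 9.29). In MG these cells were 0.407% and 0.338%, and in RGC 56.5% and 43.3%.

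Malat1 was lower in cells with a higher mitochondrial share, and the slope was steepest in rods. Cells of each type and library were ordered by mitochondrial percent and divided into 4 equal parts, and levels were taken as CPM of non-mitochondrial UMIs, so that the mitochondrial RNA did not enter the denominator. In rods of Ptbp1-Ctrl, Malat1 stood at 36807 CPM in the cells with the least mitochondrial RNA (up to 0.683%), then at 32545 and 23714, and at 12989 CPM in the cells with the most (from 3.79%). In rods of Ptbp1-KO the corresponding levels were 43481, 39821, 29896 and 18180 CPM. These are log2 ratios of −1.50 (−1.52 to −1.49) and −1.26 (−1.27 to −1.24) between the extremes. Rod clusters of high mitochondrial share differed in Malat1, in CPM of all UMIs. Rod cluster 1, with 4.81% and 5.16% mitochondrial UMIs in Ptbp1-Ctrl and Ptbp1-KO, had 27767 and 31825 CPM. Cluster 2, with 2.25% and 2.18%, had 25805 and 28976 CPM. Cluster 3, with 5.39% and 4.50%, had 7300 and 6883 CPM. The part of this mixture of clusters in the rod slope was not tested.

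Other types showed shallower slopes. Cones gave −0.35 and −0.36, AC −0.28 and −0.30, and MG −0.49 and −0.52, in Ptbp1-Ctrl and Ptbp1-KO in turn. BC were nearly level, at −0.02 and 0.05. Over single cells the Spearman correlation of Malat1 with mitochondrial percent was −0.55 over 10058 rods of Ptbp1-Ctrl and −0.47 over 9301 rods of Ptbp1-KO, and it was −0.02 and 0.07 over BC. Cells of 1 library share its free RNA and its sequencing depth, and mitochondrial percent itself correlated with depth in rods (0.25 and 0.18). Rods with the most mitochondrial RNA had a median of 1188 UMIs against 916 in those with the least, in Ptbp1-Ctrl. The part of depth in the slope was not tested.

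**Figure D2:**
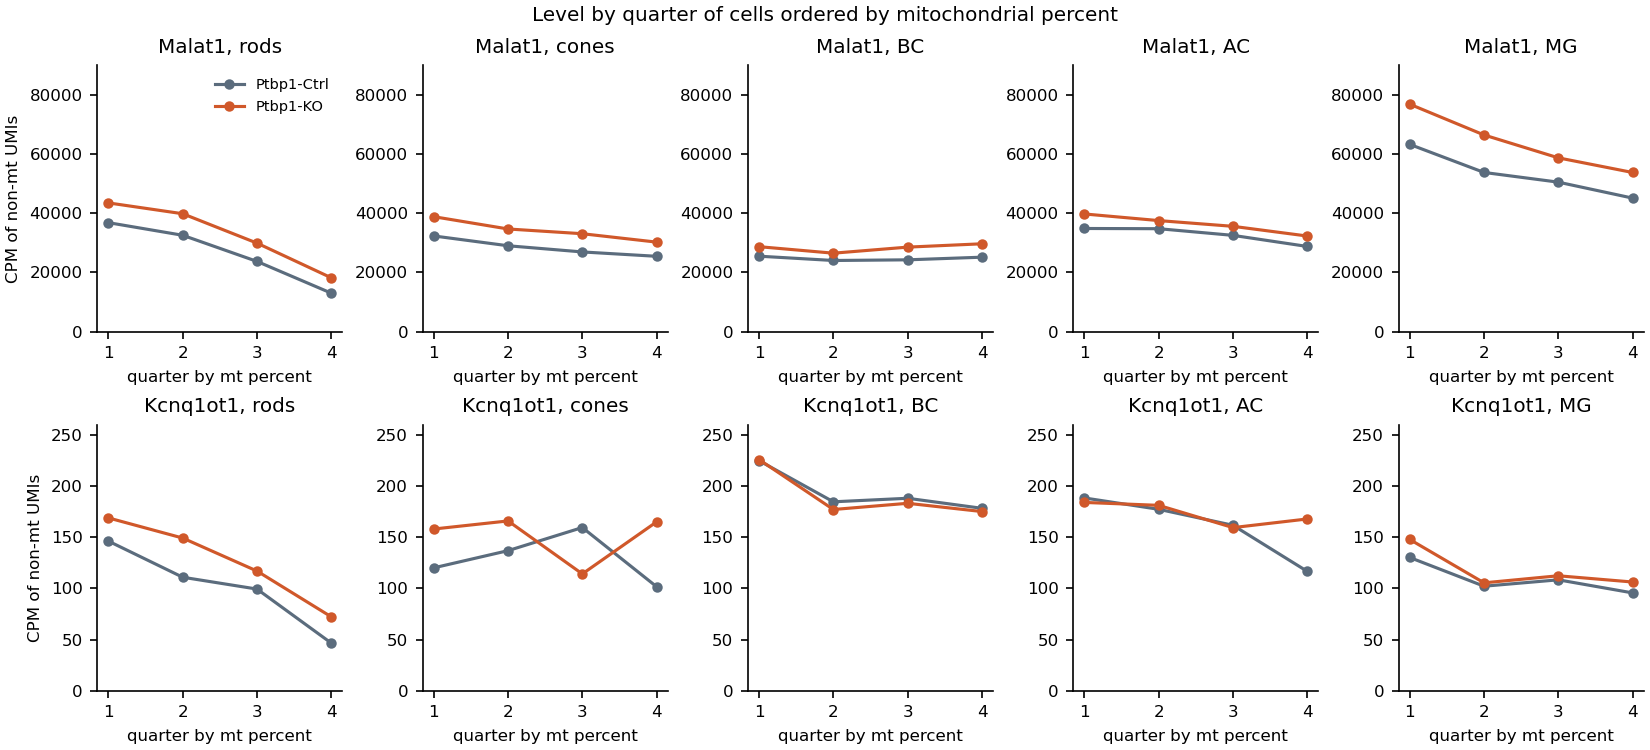
Malat1 (top) and Kcnq1ot1 (bottom) in CPM of non-mitochondrial UMIs (vertical axis) in 4 equal parts of the cells of each type, ordered by mitochondrial percent (horizontal axis, 4 is the most), with the Ptbp1-Ctrl and Ptbp1-KO libraries as 2 lines. Malat1 in rods went from 36807 to 12989 CPM in Ptbp1-Ctrl while BC stayed nearly level, and the Ptbp1-KO line lies above the Ptbp1-Ctrl line for Malat1 in every panel.

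Kcnq1ot1 was the most evenly spread member, and like Malat1 it was lower in rods with more mitochondrial RNA. Its highest level among the 5 main types exceeded the lowest by 1.97 times in Ptbp1-Ctrl and by 1.61 times in Ptbp1-KO. BC had the highest level, 188 CPM in Ptbp1-Ctrl against 184 CPM in Ptbp1-KO, followed by AC at 160 and 170, cones at 127 and 145, MG at 105 and 114, and rods at 95.2 and 121. In Ptbp1-KO rods stood above MG, and the intervals of neighbouring types in that library's own order all overlapped. Rods alone among the 5 types had an interval for the log2 ratio above 0, at 0.34 (0.24 to 0.45). Against mitochondrial percent, Kcnq1ot1 in rods went from 146 to 46.6 CPM in Ptbp1-Ctrl and from 169 to 72.3 CPM in Ptbp1-KO, log2 ratios of −1.65 (−1.92 to −1.38) and −1.22 (−1.44 to −1.01). Over all types and libraries it was lower in the cells with most mitochondrial RNA in 9 of 10 combinations, and the interval lay below 0 in 7. Rod clusters of high mitochondrial share differed in Kcnq1ot1, in CPM of all UMIs. Rod cluster 1, with 4.81% and 5.16% mitochondrial UMIs, had 114 and 130 CPM. Cluster 3, with 5.39% and 4.50%, had 25.8 and 21.4 CPM. The part of this mixture was not tested.

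Meg3 marked the inner retina and was low in photoreceptors. Its level in AC was 1101 CPM in Ptbp1-Ctrl against 1140 CPM in Ptbp1-KO, in BC 469 against 441, in MG 114 against 186, in cones 12.6 against 44.9 and in rods 8.90 against 12. AC exceeded rods by 124 times in Ptbp1-Ctrl. The RGC had 821 and 381 CPM (175 and 70 UMIs, log2 −1.11, −1.53 to −0.70), on cells with the rod marker sums given above, and the HC had 424 and 560 CPM (47 and 24 UMIs, log2 0.40, −0.37 to 1.14). AC and BC differed little between libraries, by log2 ratios of 0.05 in AC (−0.02 to 0.13) and −0.09 in BC (−0.15 to −0.03). Among BC clusters, 4 of 10 had intervals below 0 and 1, cluster 21, above 0 (209 and 297 CPM). In BC of 1000 to 2000 UMIs the ratio was 0.098.

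In MG the log2 ratio of Meg3 was 0.71 (0.56 to 0.85), on 673 and 947 UMIs. MG cluster 4 went from 101 CPM in Ptbp1-Ctrl to 183 CPM in Ptbp1-KO and MG cluster 16 from 103 to 218, whereas MG cluster 22 had 248 and 206 (log2 −0.27, −0.69 to 0.15). The share of MG with a Meg3 UMI was 23.7% in Ptbp1-Ctrl and 38.3% in Ptbp1-KO, and after each cell had been thinned to 1000 UMIs it was 10.5% (9.03 to 12.03) and 14.8% (12.8 to 17.0). Rods, at median depths of 1088 and 1288 UMIs against 3333 and 4178 in MG, had 0.881% and 1.21% after thinning. Without the MG that had a UMI of any AC marker, which left 360 and 140 cells, the Meg3 levels were 138 and 198 CPM (log2 0.52, 0.11 to 0.93). Pax6, which MG also express, made up most of the AC marker sum in MG.

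In cones Meg3 rested on few molecules. The Ptbp1-Ctrl cones held 22 UMIs in 18 of 632 cells and the Ptbp1-KO cones 64 UMIs in 35 of 439 cells, with at most 3 and 6 in a cell. The log2 ratio was 1.83, with a counting interval of 1.11 to 2.60, and in cones of 1000 to 2000 UMIs it was 3.86. The library profile taken as free RNA gave an estimate of 119 and 148 CPM of Meg3 in cones, above the measured 12.6 and 44.9. No ratio could therefore be had after its subtraction. The estimate took 49.97% and 51.25% of cone UMIs as free RNA. These rates also gave 52.7 and 61.6 CPM of Rmst, against 0.573 and 0.701 measured, and 92.7 and 90.2 CPM of Snhg11, against 5.73 and 4.91. They were thus too high for Meg3, Rmst and Snhg11. For Malat1 and Kcnq1ot1 the estimates lay below the measured levels in both libraries, and for Neat1, Miat and Snhg14 in 1 library. Summed AC markers in cones were 43.0 and 48.4 CPM, and without the cones that had a UMI of any of them the Meg3 ratio was 1.83 (1.05 to 2.67), on 19 and 53 UMIs. Meg3 UMIs per Snhg11 UMI were 1.28 and 1.64 in the whole libraries, 1.45 and 1.53 in rods, and 7.01 and 12.1 in MG. In cones they were 2.20 (1.0 to 5.20) and 9.14 (4.19 to 23.7), on 10 and 7 Snhg11 UMIs. The part of free RNA in these values was not tested. In rods, only cluster 1 had an interval above 0, with 13 and 36 UMIs (8.81 and 30.7 CPM, log2 1.80, 0.85 to 2.84).

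Other RNAs of the Meg3 domain were listed for comparison. Rian, a noncoding RNA transcribed downstream of Meg3, had 28.8 and 38.1 CPM in MG (log2 0.41, 0.10 to 0.71) and only 5 and 7 UMIs in cones. Dio3, the deiodinase gene at the far end of the domain, was counted 72 times in MG of the control library and 16 times in MG of the mutant library (12.2 and 3.15 CPM, log2 −1.95, −2.84 to −1.16), opposite in direction to Meg3. No more than 1 UMI of it was found in either library in the 4 other types.

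**Figure D3:**
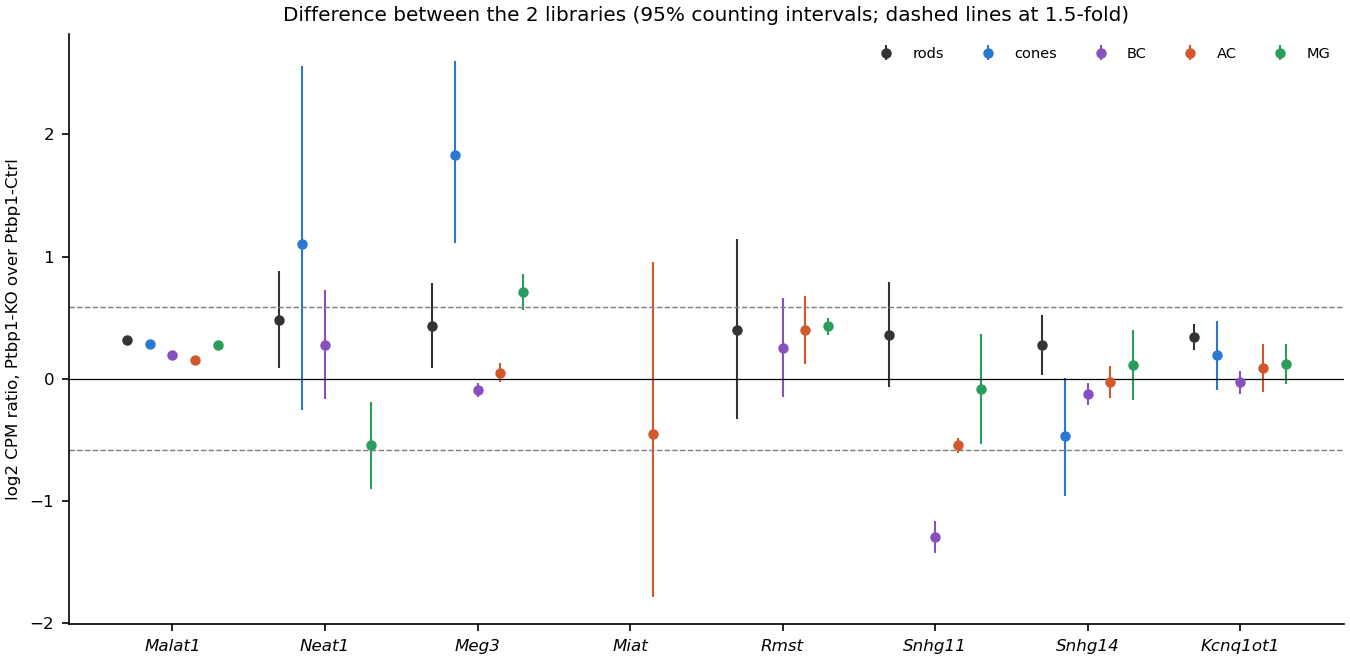
Log2 ratio of the CPM in Ptbp1-KO over Ptbp1-Ctrl (vertical axis) for each member (horizontal axis) in rods, cones, BC, AC and MG, for pairs with at least 20 UMIs. Bars are 95% intervals for counting error and dashed lines mark 1.5-fold; the 5 Malat1 points lie just above 0, Meg3 in cones and MG and Neat1 in cones lie above the upper dashed line, and Snhg11 in BC lies below the lower one.

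Rmst was an RNA of Müller glia. In MG its level was 537 CPM in Ptbp1-Ctrl against 723 CPM in Ptbp1-KO, compared with 76.7 and 101 in AC, 9.60 and 11.4 in BC, and no more than 2.83 in rods and cones. The log2 ratio in MG was 0.43 (0.36 to 0.50), under 1.5-fold. All 3 MG clusters had intervals above 0: cluster 4 with 543 and 721 CPM, cluster 16 with 782 and 1021 CPM, and cluster 22 with 302 and 538 CPM. The share of MG with an Rmst UMI was 76.4% and 88.9%, and at 1000 UMIs per cell 40.4% (38.0 to 42.8) and 49.5% (46.6 to 52.4). In cones, which barely express it, 0.158% and 0.228% of cells had a UMI. The cones had median depths of 2660 and 3179 UMIs.

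AC were not uniform for Rmst. Cluster 6, which also holds the RGC and HC, had 111 CPM in Ptbp1-Ctrl against 165 CPM in Ptbp1-KO (log2 0.57, 0.27 to 0.87), while clusters 14 and 15 had 28.4 and 23.8, and 32.2 and 33.1 CPM. Over all AC the log2 ratio was 0.40 (0.12 to 0.68), and in AC of 1000 to 2000 UMIs it was −0.32. In BC cluster 5 the counts were 7 and 34 UMIs (2.84 and 11.5 CPM, log2 2.01, 0.81 to 3.43).

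Snhg11 was highest in HC, AC and RGC and lower in rods and cones than in MG. Among pairs of a member and a main cell type with at least 20 UMIs, Snhg11 in BC was the only one lower by more than 1.5-fold. Its level in HC was 2158 CPM in Ptbp1-Ctrl against 2660 CPM in Ptbp1-KO, with AC at 1934 and 1327, RGC 1042 and 430, BC 168 and 68.8, MG 16.3 and 15.3, rods 6.14 and 7.87, and cones 5.73 and 4.91. AC exceeded cones by 337 times in Ptbp1-Ctrl, where the cone level rested on 10 UMIs (interval 2.75 to 10.5 CPM). The log2 ratio was −0.54 (−0.60 to −0.48) in AC and −1.29 (−1.42 to −1.16) in BC, whereas in HC it was 0.30 with an interval that included 0. RGC gave −1.28 (−1.67 to −0.90), on cells whose rod markers summed to 17409 and 21600 CPM; the part of rod RNA in that ratio was not tested.

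Snhg11 was lower in Ptbp1-KO in every BC and AC cluster. Across 10 BC clusters Snhg11 ranged from 21.9 to 489 CPM in Ptbp1-Ctrl and from 8.76 to 218 CPM in Ptbp1-KO. The 10 log2 ratios ran from −1.41 to −0.60, and 8 had intervals below 0. The 3 AC clusters went from 1667, 2259 and 1776 CPM to 1228, 1633 and 1131 CPM (log2 −0.44, −0.47 and −0.65). MG cluster 22 had 40 and 8 UMIs (76.3 and 21.4 CPM), while MG cluster 4 had 9.98 and 14.3 CPM. At 1000 UMIs per cell, 72.0% of AC of Ptbp1-Ctrl and 61.4% of AC of Ptbp1-KO had a Snhg11 UMI, as did 12.1% and 5.54% of BC. The same share was 0.474% and 0.745% in rods, which should lack it. Before thinning the shares were 82.5% and 78.2% in AC, 25.1% and 16.2% in BC, and 0.755% and 1.19% in rods.

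Mitochondrial percent also separated Snhg11 within BC. From the cells with the least to those with the most mitochondrial RNA, it went from 210 to 87.5 CPM in Ptbp1-Ctrl and from 87.0 to 29.6 CPM in Ptbp1-KO (log2 −1.26 and −1.55). Meg3 went the other way in the same BC, from 446 to 590 CPM and from 405 to 551 CPM (log2 0.41 and 0.44). BC clusters with different mitochondrial shares contribute unequally to these parts, and the role of that mixture was not tested.

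**Figure D4:**
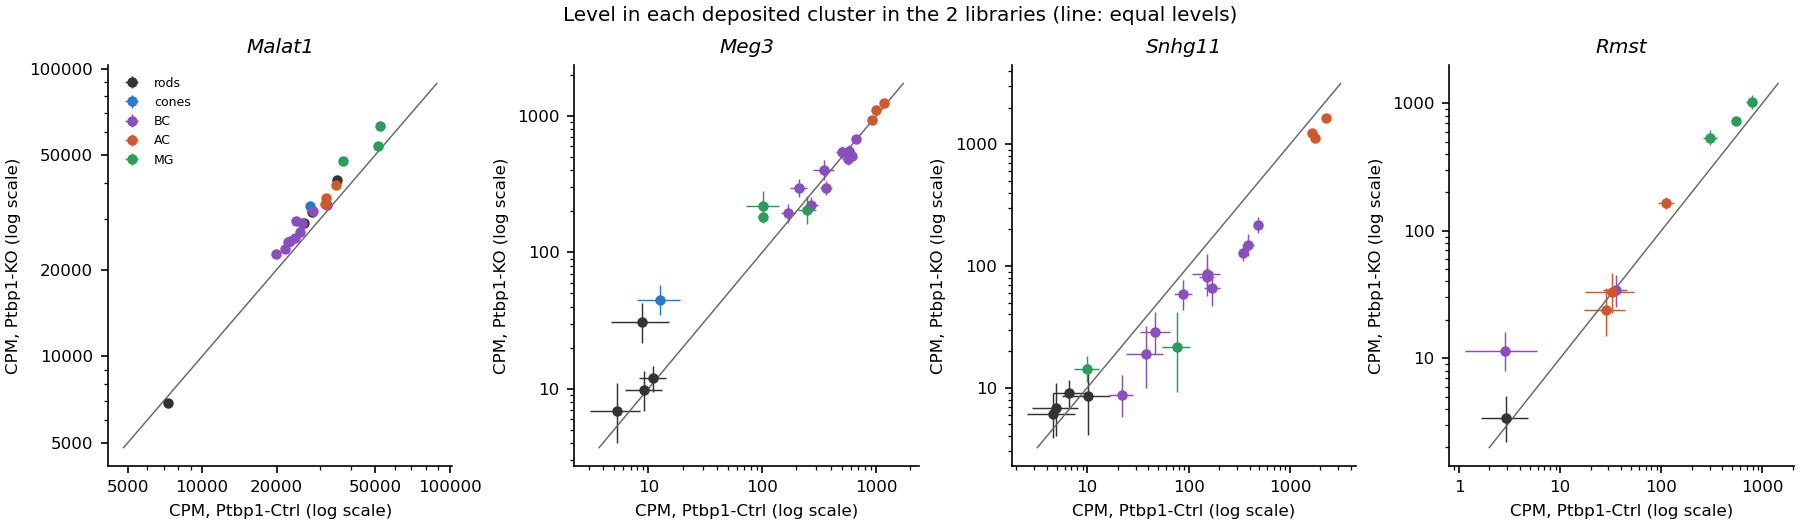
Level of Malat1, Meg3, Snhg11 and Rmst in each deposited cluster with at least 20 UMIs, in CPM of Ptbp1-Ctrl (horizontal axis, log scale) and Ptbp1-KO (vertical axis, log scale), coloured by the most frequent cell type of the cluster. Bars are 95% Poisson intervals for counting error and the line marks equal levels; all 10 BC and 3 AC clusters lie below the line for Snhg11, and all 3 MG clusters above it for Rmst.

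Among the 5 main types Snhg14, like Meg3, was highest in AC and BC. Its level in AC was 376 CPM in Ptbp1-Ctrl against 368 CPM in Ptbp1-KO, with BC at 207 and 190, cones 57.3 and 41.4, MG 36.9 and 39.9, and rods 19.1 and 23.1. HC had 190 and 303 CPM, on 21 and 13 UMIs, and RGC 178 and 87.1 CPM, on 38 and 16 UMIs (log2 −1.03, −1.98 to −0.16). Rods and BC lay on either side of 0, at log2 0.28 (0.03 to 0.52) and −0.13 (−0.22 to −0.03), and cones had −0.47 with an interval that included 0 (−0.96 to 0.01). In BC of 1000 to 2000 UMIs the ratio was 0.086. Ube3a, which overlaps Snhg14 on the opposite strand, gave −0.19 in BC (304 and 266 CPM) and −0.07 in rods (209 and 199 CPM). Snhg14 was lower in the cells with most mitochondrial RNA in 9 of 10 combinations, with 5 intervals below 0.

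Neat1 and Miat were scarce. Neat1 was highest in MG, with 181 UMIs in the control library and 107 in the mutant library (30.6 and 21.0 CPM, log2 −0.54, −0.90 to −0.19). In rods the 89 and 138 UMIs gave 6.83 and 9.52 CPM (log2 0.48, 0.09 to 0.88). Cones had 8 and 14 UMIs (4.58 and 9.82 CPM), a log2 ratio of 1.10 whose interval ran from −0.25 to 2.56. BC had 7.97 and 9.67 CPM, AC 6 and 9 UMIs, and RGC and HC none, where a floor of 3 counts allows up to 14.1 and 16.3 CPM in RGC. Miat had 9 and 13 UMIs in AC and no more than 3 in rods, cones, BC or MG of either library. In the RGC it had 12 and 3 UMIs, or 56.3 and 16.3 CPM, the highest level of any type in both libraries, with an interval of the log2 ratio (−4.25 to 0.10) that included 0. Over the whole of cluster 6, which held 123 RGC beside 293 AC in Ptbp1-Ctrl and 97 beside 478 in Ptbp1-KO, Miat had 20 and 16 UMIs (17.0 and 7.45 CPM, log2 −1.19, −2.24 to −0.17).

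All 8 members had their highest level in the same cell type in both libraries: HC for Malat1 and Snhg11, MG for Neat1 and Rmst, AC for Meg3 and Snhg14, BC for Kcnq1ot1 and RGC for Miat. The intervals of the 2 highest types overlapped for Snhg11 in Ptbp1-Ctrl (HC and AC) and, in Ptbp1-KO, for Snhg14 (AC and HC), Kcnq1ot1 (BC and AC) and Miat (RGC, on 3 UMIs, and AC). In cells of 1000 to 2000 UMIs, 3 of the 8 members had the same highest type in both libraries. That count took in HC and RGC with no minimum of cells. Before the depth limit there were 17 and 7 HC, at median depths of 6837 and 5684 UMIs, and 124 and 97 RGC. Of the 40 pairs of a member and a main cell type, 33 had at least 20 UMIs over both libraries, and 6 members reached a mean of 50 CPM in at least 1 type. In rods, 0 of 7 members with enough UMIs were past 1.5-fold, where 0.441% of the 3855 genes with a mean of at least 50 CPM were lower and 1.19% were higher by that much. In cones 2 of 5, Meg3 and Neat1, were higher, against 1.4% of 3997 genes, and 0 were lower, against 1.18%. Meg3 and Neat1 stand under 50 CPM there, and with the minimum at 10 CPM, which Neat1 does not reach, 6.25% of genes were higher. Of the genes with at least 20 UMIs in cones, 8.01% were higher by that much. Among those with a mean under 10 CPM, where Neat1 lies, 22.6% were. In BC 1 of 7, Snhg11, was lower, against 0.527% of 4176 genes, and 0 were higher, against 0.383%. In AC 0 of 7 were past 1.5-fold in either direction, against 0.553% of 4522 genes lower and 0.73% higher. In MG 1 of 7, Meg3, was higher, against 1.5% of 4205 genes, and 0 were lower, against 0.927%. The rule that chose the members used these ratios, so nothing is read from the counts.

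The median log2 ratio of the members with enough UMIs was 0.36 in rods, 0.28 in cones, −0.03 in BC, 0.05 in AC and 0.12 in MG, beside medians over all genes with at least 50 CPM of 0.00, −0.02, −0.01, −0.01 and −0.02. In rods all 7 members with enough UMIs were higher in Ptbp1-KO, and 5 had intervals above 0 (Malat1, Neat1, Meg3, Snhg14 and Kcnq1ot1), where 51.1% of the 3855 genes with at least 50 CPM were higher and 25.01% had intervals above 0. Only 2 of the 7, Malat1 and Kcnq1ot1, reached a mean of 50 CPM in rods. Genes of lower level leaned higher there. Of the 15213 genes with at least 20 UMIs in rods, 14.2% were higher past 1.5-fold and 2.13% lower. Among those with a mean under 10 CPM the shares were 30.6% and 4.28%. Against mitochondrial percent, 59 of the 80 combinations of member, cell type and library had at least 20 UMIs in the extreme parts; 46 of these were lower in the cells with most mitochondrial RNA, 32 with intervals below 0 and 5 with intervals above 0. Over all non-mitochondrial genes, 56.2% of the combinations with enough UMIs were lower, 18.8% had intervals below 0 and 12.9% above 0. The members were chosen partly on this relation, so nothing is read from the counts.

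Each member's pattern was set beside those of all other genes over 42 sums of cluster and library, on log2(CPM + 1), among 4387 genes with a mean of at least 50 CPM. Meg3 was most alike to Rian (Pearson r = 0.98), followed by Atp2b2, a plasma membrane calcium pump, and Igsf8 (both 0.95). Snhg14 ran with Dpp6, an auxiliary subunit of potassium channels, and Fmn2 (both 0.97). Snhg11 was closest to Cacnb4, a subunit of voltage-gated calcium channels (0.94), and Ndrg4 (0.93). Rmst was closest to Tmco1, a calcium channel of the endoplasmic reticulum (0.94), and Scd2, a fatty acid desaturase (0.93). Kcnq1ot1 had Rsrc1 (0.91) and Mycbp2 (0.90) as nearest genes, and Malat1 had Immp2l (0.86) and Phkb (0.84). Neat1 reached only 0.71, with Rtn4, and Miat 0.60, with Tfap2b, the lowest of the 8 best values. The 42 sums share 2 libraries and a few cell types, so these values describe likeness over cell types and carry no test.

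Of 9 paraspeckle proteins, among them Nono, Sfpq and Pspc1, none was past 1.5-fold in any of the 5 types, and the list medians lay between −0.11 and 0.01. Of 9 nuclear speckle proteins, Srsf2, a splicing factor, was lower past 1.5-fold in BC (472 and 304 CPM) and AC (480 and 290 CPM), and no other was; the medians lay between −0.07 and 0.01. Among 11 other snoRNA host genes, Snhg3 was lower past 1.5-fold in all 5 types: 40.04 and 24.3 CPM in rods, 85.4 and 41.4 in cones, 68.5 and 37.3 in BC, 52.6 and 30.6 in AC, and 54.5 and 23.0 in MG. Its log2 ratios ran from −0.72 in rods to −1.24 in MG, and the medians of the list from −0.13 to −0.04. Snhg15 in AC was also lower past 1.5-fold and Snhg18 in rods higher, both with intervals that included 0.

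A list of 13 other long noncoding RNAs, 12 of them in the count table, had medians of 0.32 in rods, −0.05 in cones, 0.05 in BC, 0.05 in AC and 0.21 in MG. In rods 4 of 11 with enough UMIs were higher past 1.5-fold and 0 lower (Six3os1, Pantr1, Pvt1 and Cdr1os). Of the 15213 genes with at least 20 UMIs in rods, 14.2% were higher by that much and 2.13% lower, and of the 6336 of these with a mean under 10 CPM, 30.6% and 4.28%. Six3os1, Pantr1 and Pvt1 lay at 0.460 to 3.86 CPM in rods. Cdr1os, the precursor of the circular RNA Cdr1as, had the most UMIs of these, with 21.8 and 42.5 CPM (log2 0.96, 0.76 to 1.17). Cdr1os was also higher in cones, at 60.7 and 137 CPM (log2 1.17), as was Six3os1 there past 1.5-fold and Pvt1 in BC and MG. In cones 8.01% of the 10294 genes with at least 20 UMIs were higher by that much, and 22.6% of those with a mean under 10 CPM. Six3os1, transcribed opposite to the homeobox gene Six3, had 268 and 393 CPM in MG (log2 0.55, 0.46 to 0.65), and Tug1 gave −0.32 there (72.0 and 57.8 CPM). Of 14 genes of the imprinted clusters of Meg3, Snhg14 and Kcnq1ot1, 12 were in the table, with medians from −0.20 in BC to 0.03 in rods. Past 1.5-fold were Dio3 in MG and Kcnq1 in BC, both lower, and Kcnq1 in rods and Cdkn1c in BC, both higher. Of all genes with at least 20 UMIs, 6.22% were higher and 3.64% lower by that much in BC, and 7.16% and 4.92% in MG. Among those with a mean under 10 CPM the shares were 15.7% and 8.81% in BC, and 18.0% and 13.0% in MG. Cd81, a tetraspanin gene near Kcnq1, had log2 ratios between −0.26 and −0.20 in rods, BC, AC and MG, with intervals below 0.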

How the data were processed

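Single cells of 2 retinas, 1 per genotype, were analysed from the gene-by-cell UMI counts and the cell table that the authors deposited. Per the labels and the study's methods, reads were aligned to mm10 with Cell Ranger 7.0.1 and cells were filtered and clustered in Seurat 4 (700 to 10000 UMIs, under 20% mitochondrial, and limits on detected genes). The gene annotation and the treatment of introns and strand are not given in the sources used here. The deposited mitochondrial percent was recomputed from 13 mt- genes and differed by rounding only. The cell table's columns for cell type, cluster, sample, total UMIs and mitochondrial percent were used, and 2 per-cell columns were not. Groups came from the sample labels.

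UMI counts were summed per cell type, cluster and library and divided by all UMIs of the sum (CPM), or by non-mitochondrial UMIs for the parts of cells ordered by mitochondrial percent. Intervals are exact (Poisson, conditional binomial for ratios, Clopper-Pearson for shares), at 95%, and cover counting error only, since PCR and capture add to it. A floor of 3 counts was used for genes at 0. With 1 library per genotype no test was run; 1.5-fold was the size named, for pairs with at least 20 UMIs. Shares of cells are also given after random thinning of every cell to 1000 UMIs, without the cells below that depth. No doublets were removed and no free RNA was subtracted. The members and all gene lists were chosen with earlier results of these data known: the 8 members, Ptbp1, cell type markers, paraspeckle and speckle proteins, other snoRNA host genes, other long noncoding RNAs and genes of the imprinted clusters, with values for at most a few of each list, and the 3 genes most alike to each member. Those named from the lists were picked after their values were seen. Sequences and coordinates came from GENCODE vM21. The intervals were checked on simulated data. Python 3.11.15, NumPy 2.4.6, SciPy 1.17.1, pandas 2.3.3 and matplotlib 3.10.9 were used, with edgeR 4.0.16 and DESeq2 1.42.0 in R 4.3.3 for scaling factors only. Alternatives were other scalings and denominators, depth, mitochondrial and UMI filters, cell weights, free RNA subtraction, folds and count filters.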

Additional observations from a re-analysis of the deposited data

Results flagged for a closer look

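Meg3, Neat1 and Snhg14 differed from Ptbp1-Ctrl in opposite directions in different cell types, with counting intervals on either side of 0. Meg3 was higher in Ptbp1-KO in cones (log2 1.83) and lower in BC (−0.090). Neat1 was higher in rods (log2 0.48) and lower in MG (−0.54). Snhg14 was higher in rods (log2 0.28) and lower in BC (−0.13). With 1 library per genotype the difference between cell types was not tested. In BC of 1000 to 2000 UMIs the Meg3 and Snhg14 ratios were above 0.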

How the results depend on the processing

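Of the 33 pairs of a member and a cell type, 28 stayed within their counting interval under edgeR TMM factors, 29 under DESeq2 size factors, 32 with mitochondrial genes and Malat1 out of the denominator and 27 with cells thinned to 1000 UMIs; none with an interval away from 0 changed sign there. In cells of 1000 to 2000 UMIs, 4 did: Meg3 in BC (0.10), Snhg14 in BC (0.086), Rmst in AC (−0.32) and Malat1 in MG (−0.12). In those cells 5 pairs were lower and 5 higher past 1.5-fold, against 1 and 3 over all cells. There 3 of 8 members had the same highest cell type in both libraries, a count that takes in the few HC and RGC. Of 38 combinations with enough UMIs, 27 were lower in the cells with most mitochondrial RNA, against 46 of 59. The cause of these changes was not tested. The count of lower pairs was 2 with thinned cells, 2 without the 5% of cells with most UMIs, 3 as a mean over cells and 3 with no filter on low counts. At a fold below 1.5 (the lower one tried), 5 pairs were lower and 10 higher. Subtracting the library profile as free RNA left 8 of the 33 pairs without a value and gave log2 −2.46 for Snhg11 in BC and 1.51 for Meg3 in MG. The subtraction took 28.9% and 27.2% of BC UMIs, and 32.1% and 27.2% of MG UMIs, as free RNA in Ptbp1-Ctrl and Ptbp1-KO. These rates gave 59.5 and 47.9 CPM of Snhg11 in MG, above the measured 16.3 and 15.3, so they were too high for that gene. In cells of 1000 to 2000 UMIs, Snhg11 in AC stood at −1.14, Meg3 in cones at 3.86 and Meg3 in MG at 1.21. Leaving out rod cluster 3, a choice made after seeing the data, changed none of the first 3 counts. Of the 24 genes named as most alike, 3 were also found over cell type sums. No paired analysis was possible because there was 1 library per genotype. Neat1 in cones and Miat in each of the 5 main types rest on too few UMIs to give a direction at this depth.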
